A study of Mus musculus with 16 samples.

Results

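The levels of 10 genes that write, read or remove repressive chromatin and DNA methylation marks were followed through sorted mouse thymocytes. These genes were Ezh2, Eed and Suz12, which encode the core of Polycomb repressive complex 2 (PRC2), Phf6 and Kdm6a, Dnmt1, Dnmt3a and Dnmt3b, which encode the DNA methyltransferases, Uhrf1, and Tet2. They were taken by gene symbol from the deposited count tables, and all 10 were found among the 22114 protein-coding genes that each table lists.

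The libraries were made from DN3 thymocytes, T-cell precursors sorted as CD4-CD8-CD25+CD44- cells from C57BL/6 mice (C57BL/6J by the methods). The study asked about the cell-cycle behaviour of pre-leukemic stem cells, so the comparisons were between label-retaining and dividing cells and between mice with and without the cell-cycle inhibitor p21. In the label-retention experiment all 6 libraries came from TetOP-H2B-GFP KI/+;Lmo2Tg mice, in which the CD2 promoter drives the oncogene Lmo2 in T cells and doxycycline induces a green histone. Doxycycline was given for 6 weeks and withdrawn for 2 weeks, and GFPhi cells, which kept the label, were compared with GFPlo cells, which had diluted it by dividing (n = 3 libraries each). This experiment held no group without the Lmo2 transgene. In the genotype experiment, DN3 cells came from 6-week-old wild-type (WT, n = 3), p21-/- (n = 2), Lmo2Tg (n = 2) and Lmo2Tg;p21-/- mice (n = 2), where p21-/- mice lack Cdkn1a, the gene for p21. The libraries labelled as replicates were pools of 3 to 5 mice by the methods. The age of 6 weeks in the methods cannot hold for mice after 6 weeks of doxycycline and 2 weeks without it, and a legend of the study puts mice of the GFP experiment at 2 months. The GFP cells came from 3 separate cohorts of mice, but nothing says which libraries share a cohort, so p-values measure the spread between these pools. The GFP libraries held 26861394 to 31106213 counts and the genotype libraries 13864936 to 16837667, so that 3 counts correspond to at most 0.112 CPM (counts scaled to one common library total) in the former and 0.222 CPM in the latter.

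The labels were checked first. Lmo2 was at most 0.306 CPM in every WT and p21-/- library, and reached 41.4 and 100.4 CPM in Lmo2Tg and 85.4 and 107 CPM in Lmo2Tg;p21-/- DN3 cells. Cdkn1a stood at 36.5, 37.5 and 49.0 CPM in WT and at 14.3 and 17.7 CPM in p21-/- DN3 cells. It was at 32.8 and 26.3 CPM in Lmo2Tg and 4.35 and 3.50 CPM in Lmo2Tg;p21-/- DN3 cells. Within the genotype experiment every library without p21 was thus below every library with it. All 9 DN3 marker genes, among them Il2ra (the CD25 chain), Ptcra (the pre-T-cell receptor alpha chain) and Notch1, had counts in every library, and their summed level was 6367 to 8303 CPM in the GFP libraries and 5065 to 7408 CPM in the genotype libraries. GFPhi replicate 3 stood apart from the other libraries. It had a second principal component score of 52.3, against -32.4 and -34.9 in the other GFPhi libraries and 0.324 to 8.38 in the GFPlo libraries. It also had 285 CPM of Lmo2 where the other GFP libraries had 29.5 to 53.8 CPM. Its Cdkn1a was at 6.56 CPM where the other GFPhi libraries had 35.8 and 29.9 CPM, and lay below every GFPlo library. The log2 fold change of Cdkn1a in GFPhi against GFPlo cells was 1.21 and was not called by edgeR. Without replicate 3 it was 1.67 and was called (adjusted p = 0.000624). The GFP results for the 10 genes are therefore given with and without this replicate. The same holds for genes named from other lists that were called with all libraries. Some genes called only without this replicate are given from that fit alone. The pools also differed in Y-linked transcripts, and the sex of the mice was not given in the sources used here. The summed level of 4 Y-linked genes (Ddx3y, Uty, Kdm5d and Eif2s3y) was 77.4, 14.5 and 9.15 CPM in GFPlo replicates 1 to 3 and 338, 367 and 0.745 CPM in GFPhi replicates 1 to 3, and it ranged from 0.410 to 442 CPM over the genotype libraries.

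PRC2 places methyl groups on lysine 27 of histone H3, a mark that keeps developmental genes and cell-cycle inhibitors silent, and Kdm6a belongs to the enzymes that take this mark off. DNA methylation is copied after each round of replication by Dnmt1, which Uhrf1 guides to newly made strands, while Dnmt3a and Dnmt3b can methylate DNA afresh and Tet2 starts its removal by oxidising methylated cytosine. Loss-of-function changes in genes of the PRC2 core, PHF6, KDM6A, DNMT3A and TET2 are well known from T-cell leukemia and related blood cancers.

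The 10 genes lay on 9 chromosomes of the GRCm38 (mm10) build, with Phf6 (chrX:52912266-52956943, plus strand) and Kdm6a (chrX:18162575-18279936, plus strand) both on the X. The genes on which the results turned were Dnmt3b at chr2:153649450-153687730 (plus strand), Uhrf1 at chr17:56303321-56323486 (plus strand) and Dnmt1 at chr9:20907209-20959888 (minus strand). Their start regions are shown because Uhrf1 and Dnmt1 moved together between genotypes and Dnmt3b did not move with them. RefSeq windows of 300 bases (GRCm38.p6, from 250 bases before to 50 bases after an annotated start, printed 5′ to 3′ on the strand of the gene) were given for 9 of the 10 genes, 14 windows in all. Each was searched on both strands for TTTCCCGC, TTTGGCGC and TTTCGCGC, letters known from E2F sites, and for the E box CACGTG. Capitals mark the matches, which in Uhrf1 is TTTCGCGC, 185 bases before the start, and in Dnmt1 are TTTCGCGC on the opposite strand (printed as its reverse complement), 219 bases before the start, and TTTGGCGC, 33 bases after it. The windows are chr17:56304063-56304362 (plus strand), chr9:20952574-20952873 (minus strand) and chr2:153649199-153649498 (plus strand).
Uhrf1 window 2: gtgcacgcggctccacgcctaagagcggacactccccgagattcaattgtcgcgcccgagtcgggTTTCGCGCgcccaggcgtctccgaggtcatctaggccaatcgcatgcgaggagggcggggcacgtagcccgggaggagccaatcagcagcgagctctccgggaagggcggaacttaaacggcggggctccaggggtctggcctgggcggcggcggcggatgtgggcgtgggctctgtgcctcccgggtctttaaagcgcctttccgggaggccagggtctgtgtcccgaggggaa
Dnmt1 window 1: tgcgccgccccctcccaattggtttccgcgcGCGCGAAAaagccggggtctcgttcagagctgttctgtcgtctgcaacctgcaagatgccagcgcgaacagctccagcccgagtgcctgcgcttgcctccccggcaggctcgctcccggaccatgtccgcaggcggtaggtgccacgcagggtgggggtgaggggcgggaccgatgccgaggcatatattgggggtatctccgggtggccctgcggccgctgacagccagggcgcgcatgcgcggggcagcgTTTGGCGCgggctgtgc
Dnmt3b: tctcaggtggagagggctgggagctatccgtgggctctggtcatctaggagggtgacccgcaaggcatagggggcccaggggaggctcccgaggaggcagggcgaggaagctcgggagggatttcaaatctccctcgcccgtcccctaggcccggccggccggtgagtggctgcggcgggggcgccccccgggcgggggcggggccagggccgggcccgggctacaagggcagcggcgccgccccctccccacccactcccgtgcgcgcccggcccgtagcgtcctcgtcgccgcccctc

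Of the 9 genes, 4 held one of the E2F words in at least 1 window, the others being Ezh2 (TTTGGCGC) and Suz12 (TTTCCCGC), while 2.12% of all 27025 genes with a window (1.84% of all windows) did. The match was in 1 of 2 windows of Uhrf1 and in 1 of 3 of Dnmt1, and the other windows of both held none. CACGTG was in the Kdm6a window and in 1 of 3 Dnmt3a windows, against 7.15% of all windows. No such word was in the Dnmt3b window. A match describes the letters only, and a window without one says nothing about the factor.

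With merged exons as the length, the maintenance pair was the most abundant in each group. Per kilobase of merged exons, Uhrf1 reached 201 ± 9.32 CPM (SD, n = 3) in WT DN3 cells and Dnmt1 109.7 ± 2.06 CPM, followed by Suz12 at 60.1 ± 5.23, Ezh2 at 46.9 ± 1.68 and Phf6 at 23.2 ± 0.763 CPM per kilobase. The levels per kilobase of Eed (20.2) and Dnmt3b (20.02) overlapped between libraries, as did those of Kdm6a (15.6) and Dnmt3a (13.7), and Tet2 was lowest at 2.397 ± 0.533. All other neighbours in this order were separated in each WT library. The longest annotated transcript as the length put Ezh2 (112 CPM per kilobase) above Suz12 (68.0). With that length Ezh2 (113.0) was also above Dnmt1 (111.3) in Lmo2Tg cells, with overlapping libraries. In GFPlo and GFPhi cells the levels of Ezh2 and Dnmt1 then overlapped. In GFPlo cells, counted in a separate table, the levels of Uhrf1 (142 CPM per kilobase) and Dnmt1 (113) overlapped and Dnmt3b had rank 5 at 29.7. In GFPhi cells Dnmt3b had rank 9 at 14.1 CPM per kilobase, where its range overlapped that of Dnmt3a (15.98).

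**Figure D1:**
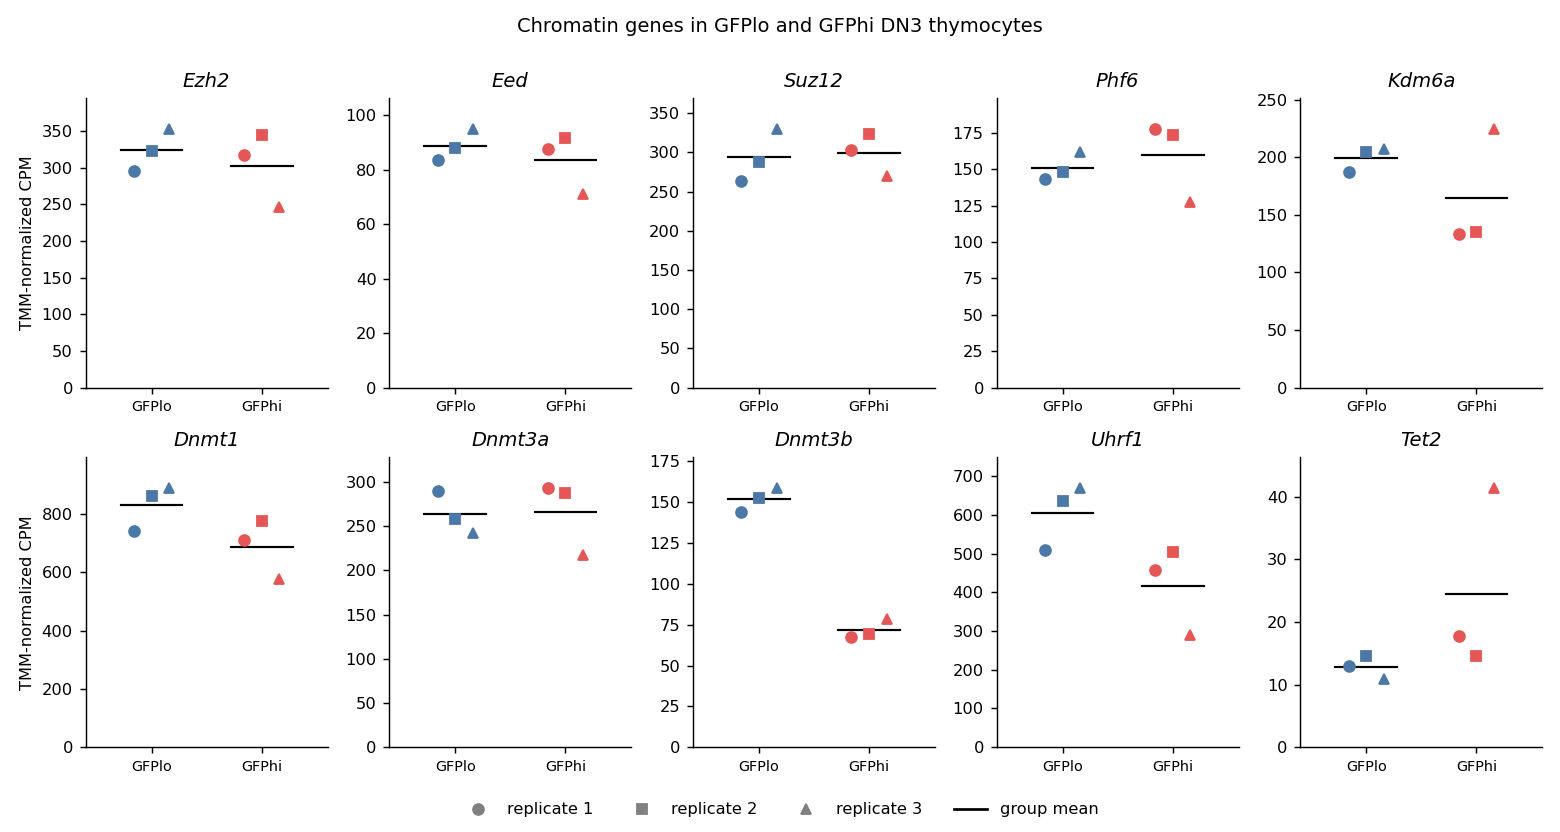
Level of each of the 10 genes (CPM, linear axis from 0) in GFPlo and GFPhi DN3 cells of H2B-GFP;Lmo2Tg mice, with markers for replicates 1 to 3 and a line at the group mean. Dnmt3b sits between 144 and 158 CPM in GFPlo and between 67.7 and 78.5 CPM in GFPhi, and GFPhi replicate 3 lies away from the other GFPhi libraries for Kdm6a, Uhrf1 and Tet2.

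The first comparison asked which of these genes differ between label-retaining and dividing Lmo2Tg DN3 cells. Dnmt3b, the de novo methyltransferase, was the 1 gene of the 10 that passed the test, and it fell in GFPhi cells. It was at 144, 153 and 158 CPM in the GFPlo replicates and at 67.7, 69.1 and 78.5 CPM in the GFPhi replicates. Every GFPhi library, replicate 3 included, was thus well below every GFPlo library, with group means of 71.8 ± 5.86 and 151.8 ± 7.22 CPM (SD, n = 3). The log2 fold change was -1.08 ± 0.078 (SE), with an adjusted p of 0.00175 in the edgeR quasi-likelihood test over 11581 genes, and without GFPhi replicate 3 it was -1.14 ± 0.059 with an adjusted p of 7.51e-05. Of all genes tested 14.9% were called in either direction and 9.49% were called lower, against 1 of these 10. Without GFPhi replicate 3 the shares were 41.3% in either direction, 19.5% higher and 21.7% lower over 11745 genes. As the libraries are bulk samples, fewer cells that make a transcript and less of it per cell cannot be told apart.

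Genes of chromosome 2, where Dnmt3b lies, were lower as a whole in GFPhi cells. Over the 923 genes tested there, the median log2 fold change was -0.18 and 77.6% were below 0, while the median of all genes was 0.02. Dnmt3b was 0.90 below the median of its chromosome on the log2 scale, and 83 of the 923 genes (8.99%) had a lower fold change than it. Without GFPhi replicate 3 the chromosome median was -0.19, and 97 of 935 genes (10.4%) were lower than Dnmt3b. The fall of Dnmt3b was thus larger than the shift of most genes on its chromosome. The study reported gains of this same chromosome in GFPlo cells, by targeted probes and by exome sequencing. The part of the chromosome shift, or of such gains, in the fall of Dnmt3b was not tested further.

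**Figure D2:**
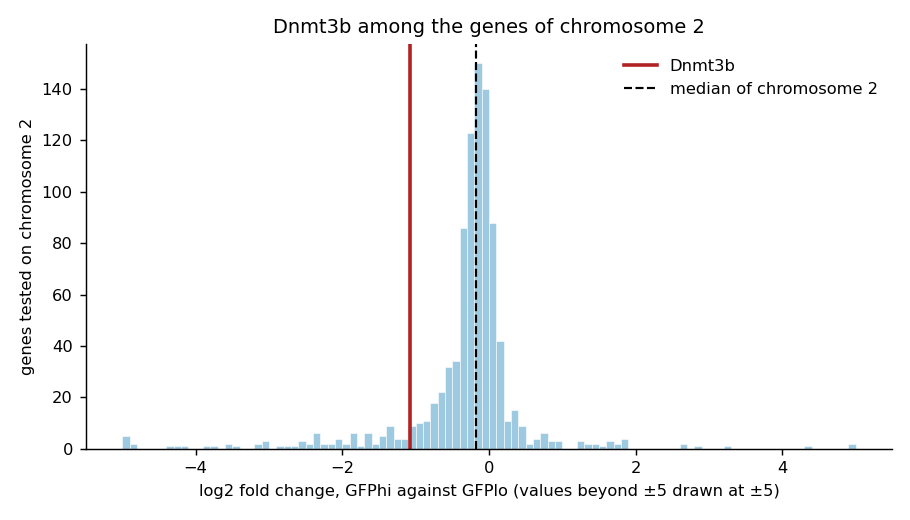
Number of genes (vertical axis) by log2 fold change of GFPhi against GFPlo (horizontal axis, values beyond ±5 drawn at ±5) for the 923 chromosome 2 genes tested. The dashed line is their median, -0.18, and the red line is Dnmt3b at -1.08, toward the lower edge of the main body of genes.

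The maintenance genes were lower in GFPhi cells on average but did not pass the test. Uhrf1, which recognises hemimethylated DNA, was at 508, 636 and 668 CPM in GFPlo and 459, 504 and 289 CPM in GFPhi cells. The groups did not overlap, and replicate 3 was the lowest library. The log2 fold change was -0.53 ± 0.22 (adjusted p = 0.154), and -0.32 ± 0.12 without that replicate (adjusted p = 0.0686). Dnmt1 was at 741, 863 and 889 CPM in GFPlo and 710.1, 776 and 579 CPM in GFPhi cells, with overlapping groups and a log2 fold change of -0.27 ± 0.13 (adjusted p = 0.199), which was -0.16 ± 0.09 without GFPhi replicate 3 (adjusted p = 0.208). Uhrf1 lies on chromosome 17, whose 615 tested genes had a median log2 fold change of -0.15 with 70.6% below 0. Uhrf1 and Dnmt3b were the only genes of the 10 whose groups were separate, against 41.3% of all genes tested.

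Dnmt3a, the other de novo enzyme, did not show the fall seen for Dnmt3b. It was at 290.0, 258 and 242 CPM in GFPlo and 293, 287 and 218 CPM in GFPhi cells, where GFPhi replicate 3 was the lowest of the 6 libraries (log2 fold change 0.013 ± 0.13, adjusted p = 0.956, and 0.14 ± 0.079 without that replicate, adjusted p = 0.184). Tet2 was the least abundant, at 13.0, 14.6 and 10.8 CPM in GFPlo and 17.7, 14.5 and 41.3 CPM in GFPhi cells. Its high mean in GFPhi cells rested on replicate 3, and the log2 fold change moved from 0.94 ± 0.41 (adjusted p = 0.171) to 0.34 ± 0.15 (adjusted p = 0.116) without it. In neither fit did Tet2 pass the test.

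No subunit of the PRC2 core was called between GFPhi and GFPlo cells. Ezh2, the methyltransferase itself, was at 296, 322 and 353 CPM in GFPlo and 317, 345 and 247 CPM in GFPhi cells (log2 fold change -0.10 ± 0.14, adjusted p = 0.66). Suz12, its structural partner, was at 264, 287 and 330.2 and 303, 323 and 271 CPM (log2 fold change 0.024 ± 0.11, adjusted p = 0.895), and Eed, which binds the methylated histone, at 83.6, 87.7 and 95.0 and 87.6, 91.6 and 71.0 CPM (log2 fold change -0.09 ± 0.11, adjusted p = 0.603). The groups overlapped for all 3 subunits, and GFPhi replicate 3 was the lowest GFPhi library for each. Without it the log2 fold changes were 0.038, 0.10 and 0.019, and the test was passed by none of them.

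Phf6 and Kdm6a, both X-linked, were not called with all 6 libraries and were called when GFPhi replicate 3 was left out. Phf6, a chromatin protein lost in many T-cell leukemias, was at 143, 148 and 162 CPM in GFPlo and 178, 174 and 127 CPM in GFPhi cells, so GFPhi replicates 1 and 2 were above all GFPlo libraries and replicate 3 below them. Its log2 fold change was 0.081 ± 0.14 (adjusted p = 0.711) with all 6 libraries and 0.23 ± 0.063 (adjusted p = 0.0275) without that replicate. Kdm6a, the H3K27 demethylase, was at 187, 205 and 208 CPM in GFPlo and 134, 136 and 225 CPM in GFPhi cells, with replicates 1 and 2 the lowest of the 6 libraries and replicate 3 the highest. Its log2 fold change was -0.28 ± 0.21 (adjusted p = 0.399), and -0.56 ± 0.061 (adjusted p = 0.000783) without replicate 3. Then 4 of the 10 genes had separate groups (Phf6, Kdm6a, Dnmt3b and Uhrf1), against 65.6% of all genes.

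Kdm6a escapes X inactivation, so that female cells make more of it. Over the 6 GFP libraries its level fell as the Y-linked level rose (Pearson r = -0.94 of log2 values, n = 6, a description of libraries that share their groups). GFPhi replicates 1 and 2 had the most Y-linked transcripts and the least Kdm6a, and GFPhi replicate 3 the least and the most. With the Y-linked level as a covariate, a fit chosen after seeing the data, the log2 fold change of Kdm6a was -0.20 (adjusted p = 0.0372), that of Uhrf1 -0.68 (adjusted p = 0.0319), that of Tet2 0.99 (adjusted p = 0.0156) and that of Dnmt3b -1.04 (adjusted p = 0.000408). In that fit 1 of the 10 genes was called higher and 3 lower. Of all genes it called 33.7%, with 14.8% higher and 18.9% lower. Within GFPhi cells the Y-linked level was 338 and 367 CPM in replicates 1 and 2 and 0.745 CPM in replicate 3. The covariate fit therefore cannot tell the Y-linked level from the other ways in which GFPhi replicate 3 stood apart. Over the 9 genotype libraries the same correlation for Kdm6a was -0.37. Dnmt3a (r = 0.96) and Phf6 (r = 0.81) were high in the GFP libraries with high Y-linked levels. Of 3 other genes that escape X inactivation (Ddx3x, Eif2s3x and Kdm5c), 1 was called lower in GFPhi cells, and all 3 were without replicate 3. This was Ddx3x, an RNA helicase gene at 1115, 1214 and 1289.6 CPM in GFPlo and 876, 911 and 850.1 CPM in GFPhi cells (log2 fold change -0.46 ± 0.075, adjusted p = 0.0154, and -0.43 without replicate 3, adjusted p = 0.00477). Here replicate 3 was the lowest of the 6 libraries, and not the highest as for Kdm6a. Ddx3x does not stand for all 3 genes, as Eif2s3x and Kdm5c were called lower only without replicate 3. The summed level of the 3 genes, most of it Ddx3x, was 1422, 1528 and 1581 CPM in GFPlo cells. It was 1130, 1162 and 1157 CPM in GFPhi replicates 1 to 3, where replicate 3 was not the lowest.

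**Figure D3:**
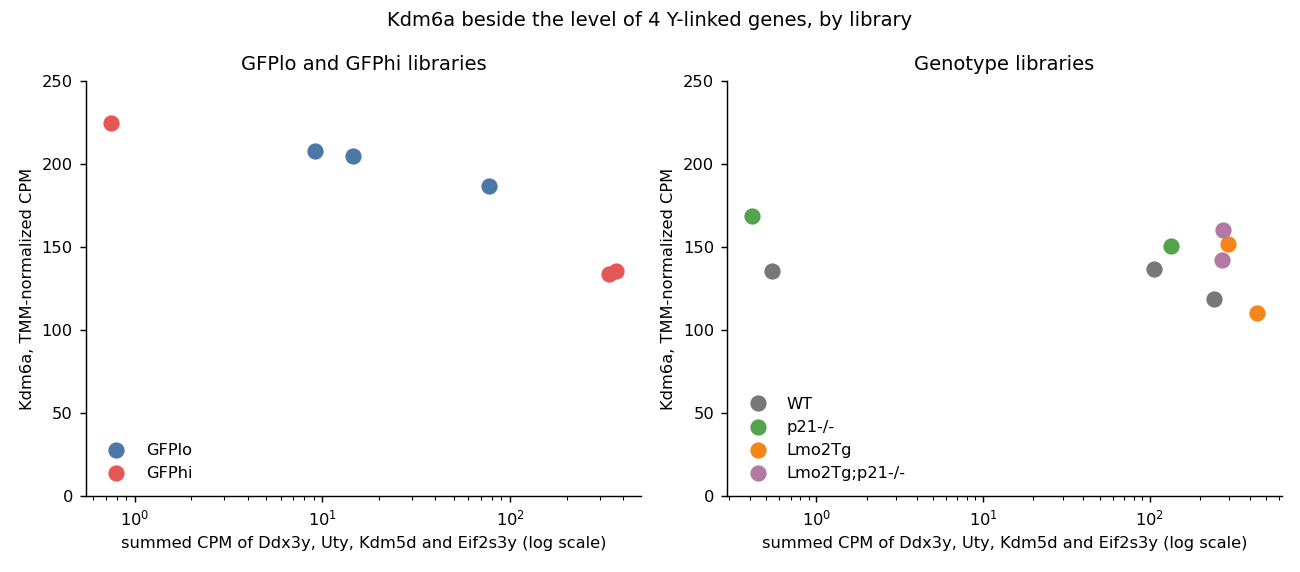
Kdm6a level (CPM, vertical axis) against the summed level of 4 Y-linked genes (CPM, log axis) in the 6 GFP libraries (left) and the 9 genotype libraries (right), each point a library. On the left the libraries run from 225 CPM of Kdm6a at the lowest Y-linked level to 134 and 136 CPM at the highest 2, and on the right they are scattered.

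The second comparison was between genotypes, and asked how the Lmo2 transgene and the loss of p21 go with the level of these genes. Uhrf1 and Dnmt1 fell in Lmo2Tg DN3 cells compared with WT cells, and both were also lower in Lmo2Tg;p21-/- than in p21-/- DN3 cells. No other gene of the 10 passed the test in any of the genotype comparisons.

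**Figure D4:**
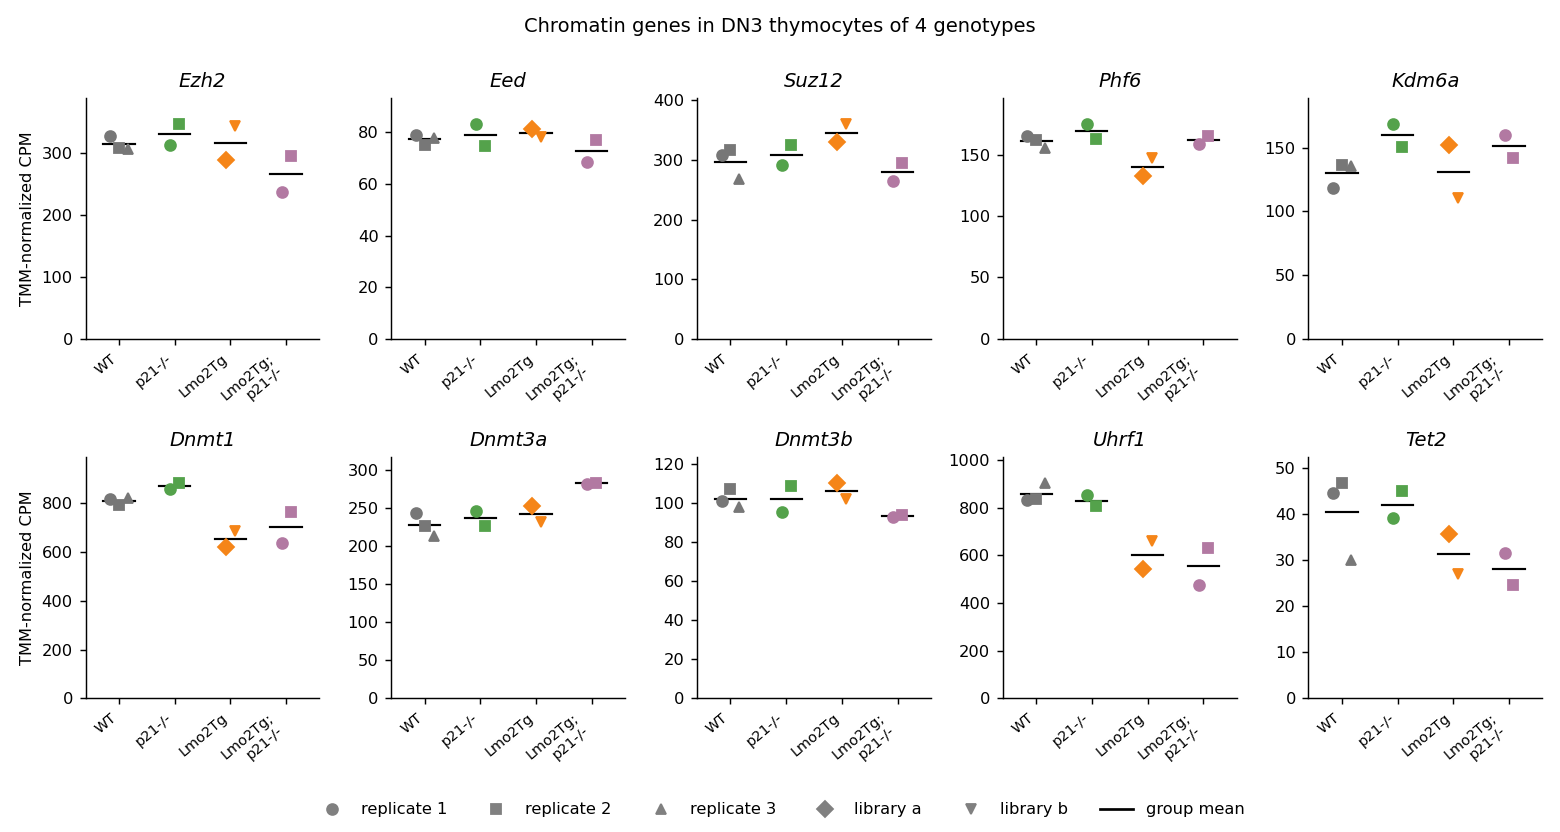
Level of each of the 10 genes (CPM, linear axis from 0) in WT, p21-/-, Lmo2Tg and Lmo2Tg;p21-/- DN3 cells, with markers for the libraries and a line at the group mean. Uhrf1 lies at 807 CPM or above in all libraries without the transgene and at 661 CPM or below in all libraries with it.

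Uhrf1 was at 832, 836 and 903 CPM in WT, 851 and 807 CPM in p21-/-, 543 and 661 CPM in Lmo2Tg and 475 and 632 CPM in Lmo2Tg;p21-/- DN3 cells. All 4 libraries with the transgene were thus below all 5 without it. The log2 fold change of Lmo2Tg against WT was -0.51 ± 0.12 (SE, adjusted p = 0.00856), and that of Lmo2Tg;p21-/- against p21-/- was -0.58 ± 0.13 (adjusted p = 0.00761), both from 1 edgeR fit over 11840 genes and 9 libraries. The first call was lost without Lmo2Tg library a (log2 fold change -0.37, adjusted p = 0.0963) and the second without Lmo2Tg;p21-/- replicate 1 (-0.40, adjusted p = 0.0714). When 1 of 2 libraries of a group is left out, the fit takes the spread of the lone library from the other groups. A difference of the transgene effect between mice with and without p21 was not detected (interaction log2 fold change -0.073 ± 0.18, adjusted p = 0.869).

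Dnmt1 was at 815, 792 and 820.1 CPM in WT, 858 and 881 CPM in p21-/-, 621 and 686 CPM in Lmo2Tg and 637 and 763 CPM in Lmo2Tg;p21-/- DN3 cells. Here too every library with the transgene was below every library without it, by a smaller margin. The log2 fold change was -0.31 ± 0.09 for Lmo2Tg against WT (adjusted p = 0.0208) and -0.31 ± 0.10 for Lmo2Tg;p21-/- against p21-/- (adjusted p = 0.032). The call against WT was lost without WT replicate 1 (-0.30, adjusted p = 0.0515) or Lmo2Tg library a (-0.24, adjusted p = 0.170). That against p21-/- was lost without p21-/- replicate 1 (adjusted p = 0.0858) or 2 (adjusted p = 0.136) and without Lmo2Tg;p21-/- replicate 1 (-0.20, adjusted p = 0.250), and was held in 7 of 12 alternatives.

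These 2 calls have to be read against many others. Of all genes, 36.6% were called between Lmo2Tg and WT and 16.9% were called lower, against 2 of 10 lower here, and 30.7% and 14.4% between Lmo2Tg;p21-/- and p21-/-, again with 2 of 10 lower. The libraries of 4 of the 10 genes did not overlap between Lmo2Tg and WT (Suz12, Phf6, Dnmt1 and Uhrf1), against 60.9% of all genes, and those of 6 (Ezh2, Dnmt1, Dnmt3a, Dnmt3b, Uhrf1 and Tet2) between Lmo2Tg;p21-/- and p21-/-, against 70.9%. The median log2 fold change of the 10 genes was 0.0082 and -0.13 in these comparisons, that of all genes -0.01 and -0.0043. The share of the 10 genes that was called is near or under these background shares.

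Dnmt3b, the gene with the largest change in GFPhi cells, was at 101, 107 and 98.4 CPM in WT, 95.5 and 109 CPM in p21-/-, 110.3 and 102 CPM in Lmo2Tg and 92.9 and 94.3 CPM in Lmo2Tg;p21-/- DN3 cells. The 9 libraries lay between 92.9 and 108.9 CPM except Lmo2Tg library a at 110.3 CPM, and the log2 fold changes were 0.055 ± 0.081 for Lmo2Tg against WT (adjusted p = 0.629) and -0.18 ± 0.089 for Lmo2Tg;p21-/- against Lmo2Tg (adjusted p = 0.229). Dnmt3a was at 243, 226 and 214 CPM in WT, 246 and 226 CPM in p21-/-, 253 and 231 CPM in Lmo2Tg and 282 and 282 CPM in Lmo2Tg;p21-/- DN3 cells. Both Lmo2Tg;p21-/- libraries were the highest of the 9, with a log2 fold change of 0.26 ± 0.09 against p21-/- (adjusted p = 0.0509) and 0.22 ± 0.09 against Lmo2Tg (adjusted p = 0.156), short of the threshold in both. DESeq2, limma-voom, the replicate block and a fit of only the groups compared called Dnmt3a higher against p21-/-.

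Tet2 was at 44.5, 46.7 and 30.1 CPM in WT, 39.1 and 44.9 CPM in p21-/-, 35.6 and 27.01 CPM in Lmo2Tg and 31.6 and 24.6 CPM in Lmo2Tg;p21-/- DN3 cells. WT replicate 3 was within the range of the transgenic libraries and the other WT libraries were above it. The log2 fold change was -0.37 ± 0.19 against WT (adjusted p = 0.158), where it was called lower without WT replicate 3 (-0.54, adjusted p = 0.0262) or with the Y-linked covariate (-0.55, adjusted p = 0.0362), and -0.58 ± 0.21 for Lmo2Tg;p21-/- against p21-/- (adjusted p = 0.0558), the latter called lower in 5 of 12 alternatives (DESeq2, no filter, the Y-linked covariate, the replicate block and only the groups compared).

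Among the PRC2 subunits, Suz12 was at 307, 316 and 268 CPM in WT, 292 and 325 CPM in p21-/-, 330.4 and 361 CPM in Lmo2Tg and 264 and 295 CPM in Lmo2Tg;p21-/- DN3 cells. The Lmo2Tg libraries were the highest and did not overlap with WT (log2 fold change 0.22 ± 0.10, adjusted p = 0.0975) or with Lmo2Tg;p21-/- (log2 fold change -0.31 ± 0.11, adjusted p = 0.105), and the interaction had an unadjusted p of 0.0285 (log2 value -0.36 ± 0.14, adjusted p = 0.217). Ezh2 was at 326, 307 and 307 CPM in WT, 312 and 347 CPM in p21-/-, 288 and 342 CPM in Lmo2Tg and 237 and 294 CPM in Lmo2Tg;p21-/- DN3 cells. Lmo2Tg;p21-/- cells had the lowest mean, with a log2 fold change of -0.31 ± 0.12 against p21-/- (adjusted p = 0.07), which was called lower by DESeq2, without a filter, with the replicate block and without Lmo2Tg;p21-/- replicate 2 (-0.49, adjusted p = 0.0223). Eed ranged from 68.5 to 83.4 CPM over the 9 libraries, and its log2 fold changes lay between -0.13 and 0.047 in the pairwise comparisons.

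Phf6 was at 165, 162 and 155 CPM in WT, 175 and 163 CPM in p21-/-, 132 and 147 CPM in Lmo2Tg and 158 and 165 CPM in Lmo2Tg;p21-/- DN3 cells. The Lmo2Tg libraries were the lowest 2, without passing the test against WT (log2 fold change -0.20 ± 0.078, adjusted p = 0.063) or Lmo2Tg;p21-/- (log2 fold change 0.21 ± 0.085, adjusted p = 0.156), though the former was called without WT replicate 3 (-0.23, adjusted p = 0.0458). Kdm6a was at 119, 137 and 136 CPM in WT, 169 and 150.4 CPM in p21-/-, 152 and 111 CPM in Lmo2Tg and 160.0 and 142 CPM in Lmo2Tg;p21-/- DN3 cells. The p21-/- libraries were above all WT libraries (log2 fold change 0.29 ± 0.13, unadjusted p = 0.0417, adjusted p = 0.984), and p21-/- replicate 1 held the fewest Y-linked transcripts of all, 0.410 CPM. How far the sex of the pooled mice enters this difference was not tested beyond the covariate fit, where the log2 fold change was 0.26 (adjusted p = 0.593).

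None of the 10 genes was called after loss of p21, with or without the transgene. Between p21-/- and WT, edgeR called 0 of 10 (1 at an unadjusted p under 0.05) and DESeq2 and limma-voom called 0, while 13 of all genes, 0.11%, were called. The libraries of Kdm6a and Dnmt1 did not overlap, 2 of 10 against 19.5% of all genes. Between Lmo2Tg;p21-/- and Lmo2Tg, all 3 tools called 0 of 10, edgeR with 3 at an unadjusted p under 0.05, where 6.94% of all genes were called. Groups did not overlap for 5 of the 10 (Eed, Suz12, Phf6, Dnmt3a and Dnmt3b), against 54.8% of all genes. In the interaction of transgene and p21 loss, all 3 tools again called 0 of 10, with 1 at an unadjusted p under 0.05 in edgeR, and 1.38% of all genes were called. These comparisons share libraries with each other and are not independent.

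**Figure D5:**
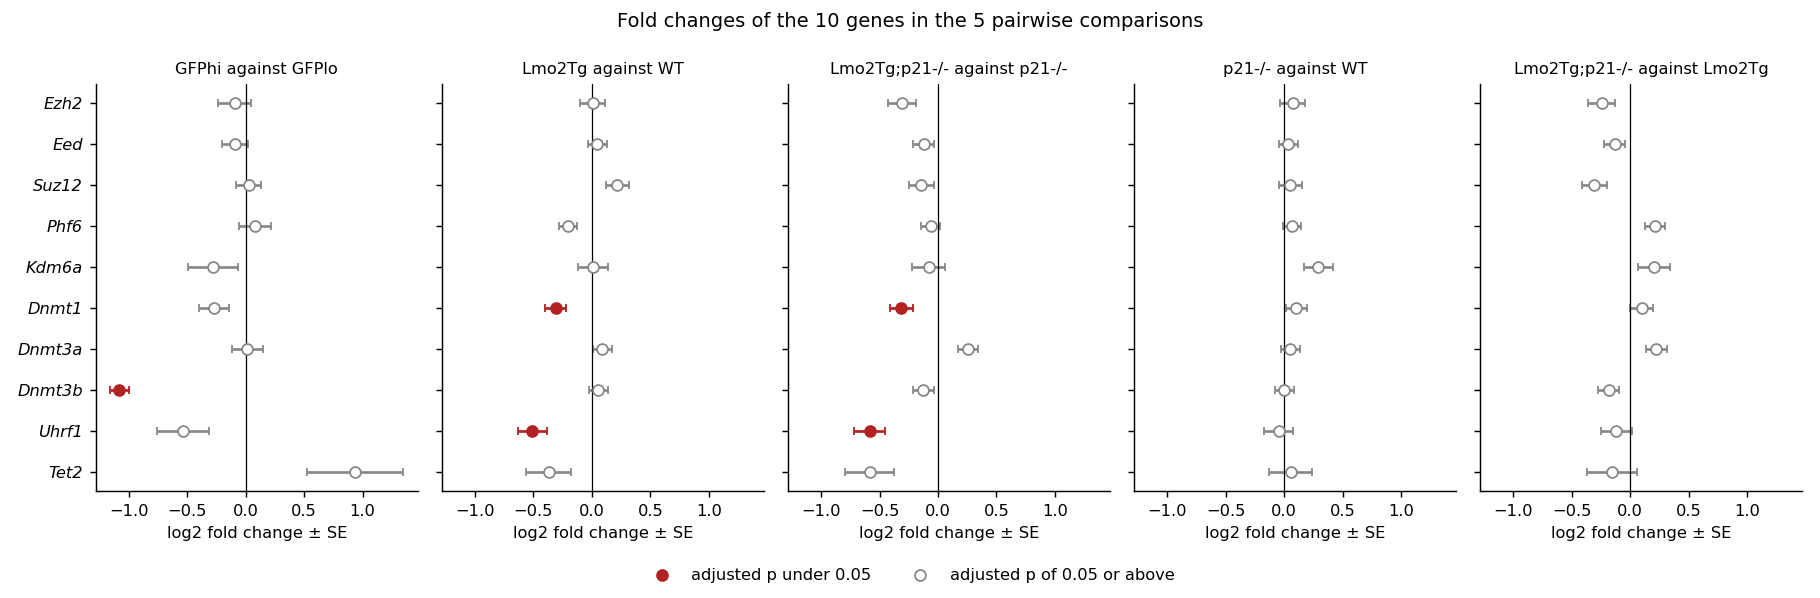
Log2 fold change with its standard error for the 10 genes in the comparison of GFPhi with GFPlo and the 4 pairwise genotype comparisons, with filled red points where the adjusted p is under 0.05. Dnmt3b at -1.08 in GFPhi cells is the point farthest from 0 among those filled, and Uhrf1 and Dnmt1 are filled in both transgene comparisons.

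Genes that work with these 10 were then counted by role. Their counts stand beside 14.9% of all genes called in GFPhi cells (41.3% without replicate 3), 36.6% between Lmo2Tg and WT, 30.7% between Lmo2Tg;p21-/- and p21-/- and 6.94% between Lmo2Tg;p21-/- and Lmo2Tg. Among 11 accessory or alternative PRC2 subunits, 10 were tested. In GFPhi cells Phf19, which recruits PRC2 to chromatin and lies on chromosome 2 as Dnmt3b does, fell (log2 fold change -0.78 ± 0.16, adjusted p = 0.0269, and -0.67 without replicate 3, adjusted p = 0.00804) from 33.1, 42.9 and 41.3 CPM in GFPlo to 22.6, 26.4 and 19.1 CPM, and the other 9 were not called. Between Lmo2Tg and WT 2 were higher and 3 lower, the latter being Mtf2 (679, 653 and 527 CPM in WT, 422 and 416 CPM in Lmo2Tg, log2 fold change -0.56 ± 0.12, adjusted p = 0.00458), Rbbp7 (log2 fold change -0.43 ± 0.10, adjusted p = 0.0054) and Epop (log2 fold change -0.88 ± 0.15, adjusted p = 0.00118). Mtf2, which like Phf19 is a Polycomb-like recruiter, had a log2 fold change of -0.83 ± 0.13 in Lmo2Tg;p21-/- against p21-/- cells (adjusted p = 0.000867), where Phf1 (log2 fold change 1.05 ± 0.16, adjusted p = 0.00073) and Ezh1, the alternative methyltransferase (log2 fold change 0.58 ± 0.11, adjusted p = 0.00236), were higher. Of the 10 tested, 3 were higher and 2 lower there. Without GFPhi replicate 3, 1 was higher (Mtf2, log2 fold change 0.31 ± 0.056, adjusted p = 0.00564) and 1 lower (Phf19). The list median was 0.04 in GFPhi cells, 0.02 for Lmo2Tg against WT and -0.09 for Lmo2Tg;p21-/- against p21-/-, near the medians of all genes (0.02, -0.01 and -0.0043). The call of Phf19 was lost without GFPlo replicate 2 (-0.71, adjusted p = 0.129) or 3 (-0.74, adjusted p = 0.104) or GFPhi replicate 1 (-0.77, adjusted p = 0.0893), and that of Rbbp7 without Lmo2Tg library a (-0.33, adjusted p = 0.0664).

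Of 25 genes of PRC1, which binds the PRC2 mark, and of the deubiquitinase PR-DUB, 2 were higher and 2 lower in GFPhi cells. Asxl1, the PR-DUB cofactor, which lies on chromosome 2 as Dnmt3b does, was at 313, 349 and 346 CPM in GFPlo and 210.1, 213 and 241 CPM in GFPhi cells (log2 fold change -0.60 ± 0.08, adjusted p = 0.00856, and -0.66 without replicate 3, adjusted p = 0.000505). Rnf2, a ubiquitin ligase of PRC1, rose (log2 fold change 0.34 ± 0.076, adjusted p = 0.0353, and 0.41 without replicate 3, adjusted p = 0.00145), as did Scmh1 (log2 fold change 0.36 ± 0.088, adjusted p = 0.0446, and 0.28 without replicate 3, adjusted p = 0.0119). Between Lmo2Tg and WT, 7 were higher and 4 lower. The PRC1 reader Cbx7 rose from 24.5, 25.8 and 23.1 CPM in WT to 51.0 and 38.6 CPM in Lmo2Tg cells (log2 fold change 0.87 ± 0.15, adjusted p = 0.00149), and Pcgf2 fell (log2 fold change -1.66 ± 0.29, adjusted p = 0.00126). Both moved the same way in Lmo2Tg;p21-/- against p21-/- cells, where 6 were higher and 4 lower (Cbx7 1.46 ± 0.17, adjusted p = 0.000122, and Pcgf2 -1.93 ± 0.31, adjusted p = 0.000848). In GFPhi cells without replicate 3, 6 genes of the list were higher and 6 lower, with Cbx7 at -1.04 (adjusted p = 0.000121), but that replicate was at 69.4 CPM against 36.6 and 39.0 CPM in the others. The list medians were 0.03, 0.02 and -0.07 in GFPhi cells and the 2 transgene comparisons. The call of Asxl1 was lost without GFPlo replicate 2 (-0.57, adjusted p = 0.0631), and those of Rnf2 and Scmh1 without any 1 of the other GFP libraries than GFPhi replicate 3 (adjusted p of 0.0769 to 0.174). The Scmh1 call was also lost with no filter on low counts (adjusted p = 0.0512) and with scaling on genes outside chromosomes 2, 15 and 17 (adjusted p = 0.0707).

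Of 7 partners of the H3K27 demethylase, 3 were higher and 1 lower between Lmo2Tg and WT. The KMT2 methyltransferases Kmt2d (log2 fold change 0.87 ± 0.18, adjusted p = 0.00315) and Kmt2c (log2 fold change 0.54 ± 0.17, adjusted p = 0.0258) and the second demethylase Kdm6b (log2 fold change 0.42 ± 0.09, adjusted p = 0.0047) were higher, while Kdm6a itself was at 0.0093. Kmt2c was also higher in GFPhi cells (log2 fold change 0.44 ± 0.094, adjusted p = 0.0309, and 0.36 without replicate 3, adjusted p = 0.0062) and in Lmo2Tg;p21-/- against p21-/- cells (log2 fold change 0.66 ± 0.18, adjusted p = 0.0201), the 1 call of the list in each, and 0 were called between Lmo2Tg;p21-/- and Lmo2Tg by edgeR (2 at an unadjusted p under 0.05), DESeq2 or limma-voom. Without GFPhi replicate 3 the list held 3 higher and 1 lower calls, one of the former being the Y-linked Uty. The list median was 0.42 for Lmo2Tg against WT and 0.02 in GFPhi cells. The Kmt2c and Kdm6b calls against WT were lost without Lmo2Tg library a (0.43, adjusted p = 0.162, and 0.32, adjusted p = 0.0529), and that of Kmt2c in GFPhi cells without GFPlo replicate 1, 2 or 3 or GFPhi replicate 1 (adjusted p of 0.0613 to 0.14). Against p21-/- the Kmt2c call was lost without p21-/- replicate 2 (0.56, adjusted p = 0.134) or Lmo2Tg;p21-/- replicate 1 (0.52, adjusted p = 0.148). With the Y-linked covariate Kmt2c was called neither against WT (0.43, adjusted p = 0.0904) nor against p21-/- (0.48, adjusted p = 0.116).

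The list of partners and readers of DNA methylation held 14 genes, of which 13 were tested. Between Lmo2Tg and WT 2 were higher and 3 lower. Cdca7 and Hells, which form a remodeller needed for DNA methylation, were among the lower ones together with Uhrf1 and Dnmt1 of the 10 genes. Cdca7 was at 525, 525 and 585 CPM in WT, 555 and 537 CPM in p21-/-, 353 and 392 CPM in Lmo2Tg and 340.0 and 405 CPM in Lmo2Tg;p21-/- DN3 cells (log2 fold change -0.55 ± 0.10, adjusted p = 0.00133, and -0.55 ± 0.10, adjusted p = 0.00244, against p21-/-), and Hells had a log2 fold change of -0.36 ± 0.13 (adjusted p = 0.0468). The Hells call was lost without Lmo2Tg library a (-0.22, adjusted p = 0.329), WT replicate 1 (-0.34, adjusted p = 0.102) or WT replicate 2 (-0.31, adjusted p = 0.123), and with RLE size factors (adjusted p = 0.0516) or with scaling on genes outside chromosomes 2, 15 and 17 (adjusted p = 0.0564). Zbtb38, which binds methylated DNA, rose in both transgene comparisons (1.08 ± 0.12, adjusted p = 7.98e-05, and 0.79 ± 0.14, adjusted p = 0.0015). In Lmo2Tg;p21-/- against p21-/- cells 2 were higher and 4 lower. In GFPhi cells 1 was higher (Zbtb4, log2 fold change 1.09 ± 0.26, adjusted p = 0.0435) and 1 lower (Mbd1, log2 fold change -0.27 ± 0.057, adjusted p = 0.031), with 0.84 (adjusted p = 0.0135) and -0.30 (adjusted p = 0.00574) without replicate 3, and 4 were higher and 2 lower of 14 tested without replicate 3. The Zbtb4 and Mbd1 calls were lost without any 1 of several libraries (adjusted p of 0.0527 to 0.176 for Zbtb4 and up to 0.163 for Mbd1). List medians were 0.096 in GFPhi cells, -0.051 against WT and -0.053 against p21-/-.

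All 10 listed genes of DNA demethylation and of 2-oxoglutarate metabolism, which supplies the cofactor of Tet and Kdm6 enzymes, were tested. In GFPhi cells Tet1, the relative of Tet2, fell from 90.2, 87.9 and 89.0 CPM in GFPlo to 62.7, 56.4 and 57.5 CPM (log2 fold change -0.60 ± 0.061, adjusted p = 0.00434, and -0.58 without replicate 3, adjusted p = 0.000829), with GFPhi replicate 3 inside the range of the others, and it was called in all 13 alternatives. It was the 1 call of the list, and 4 were lower without GFPhi replicate 3. Between Lmo2Tg and WT 4 were lower and none higher, Idh2 (log2 fold change -0.57 ± 0.078, adjusted p = 0.00027), Mbd4 (log2 fold change -0.50 ± 0.081, adjusted p = 0.000827) and Idh1 (log2 fold change -0.46 ± 0.12, adjusted p = 0.0146) by the largest margins. In Lmo2Tg;p21-/- against Lmo2Tg cells 3 were higher, namely Idh1 (log2 fold change 0.67 ± 0.13, adjusted p = 0.0184), Ogt (log2 fold change 0.58 ± 0.13, adjusted p = 0.0298) and Mbd4 (log2 fold change 0.40 ± 0.088, adjusted p = 0.0253), and against p21-/- cells 1 was higher and 2 lower. These 3 calls were lost without Lmo2Tg library a or b or Lmo2Tg;p21-/- replicate 1 or 2 (adjusted p of 0.0509 to 0.235), and the Idh1 call against WT without either Lmo2Tg library (0.0553 and 0.0724). List medians were -0.13 in GFPhi cells, -0.22 for Lmo2Tg against WT and 0.11 for Lmo2Tg;p21-/- against Lmo2Tg.

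Of the 22 genes listed as Polycomb targets, many were too low to test, and 4 passed the filter on low counts in the GFP table and 10 in the genotype table. Between Lmo2Tg and WT 3 were higher and 5 lower, and between Lmo2Tg;p21-/- and p21-/- 2 were higher and 6 lower. The lower ones were Hoxa genes. Hoxa7 was at 22.4, 19.7 and 22.9 CPM in WT, 18.8 and 20.7 CPM in p21-/-, 4.22 and 4.44 CPM in Lmo2Tg and 3.14 and 3.44 CPM in Lmo2Tg;p21-/- DN3 cells (log2 fold change -2.32 ± 0.14, adjusted p = 1.43e-06, and -2.58 ± 0.16, adjusted p = 1.37e-06, against p21-/-), and Hoxa4 was at least 4.24-fold lower against WT when 3 counts per library were taken as the floor. The cell-cycle inhibitor gene Cdkn2a moved the other way, from 0, 0.127 and 0.0605 CPM in WT to 7.10 and 9.09 CPM in Lmo2Tg cells, at least 43.7-fold higher against the same floor, and Cdkn2b was at least 8.05-fold higher. Cdkn2a and Cdkn2b passed the filter on low counts only through the transgenic libraries, where they were high. Hoxa4 passed it only through the libraries without the transgene. The calls of Cdkn2a, Cdkn2b and Hoxa4 between these genotypes therefore decide nothing, though the counts of higher and lower genes above hold them. In Lmo2Tg;p21-/- against Lmo2Tg cells edgeR, DESeq2 and limma-voom called none (4 at an unadjusted p under 0.05 in edgeR). In GFPhi cells Cdkn1c fell from 1.15, 1.33 and 1.77 CPM to 0.294, 0.375 and 0.410 CPM (log2 fold change -1.96 ± 0.30, adjusted p = 0.0125), the 1 call, which was lost without GFPlo replicate 2 (-2.00, adjusted p = 0.0749) or 3 (-1.77, adjusted p = 0.0592), while without GFPhi replicate 3 it was -2.06 (adjusted p = 0.00458) and there were 3 higher and 1 lower of 5 tested. The higher ones were Hoxa7, Cdkn2b and Cdkn2a. Hoxa7 was at 0.296, 0.0349 and 0.129 CPM in GFPlo and 1.73, 2.66 and 0.149 CPM in GFPhi cells. It passed the filter on low counts only without replicate 3, through GFPhi replicates 1 and 2 where it was high. Its call in that fit therefore decides nothing. Cdkn2b was at 0.666, 0.768 and 0.644 CPM in GFPlo and 2.06, 1.40 and 0.782 CPM in GFPhi cells (log2 fold change 1.32, adjusted p = 0.0107 without replicate 3). Cdkn2a was at 14.1, 12.4 and 11.4 CPM in GFPlo and 24.7, 22.1 and 1.19 CPM in GFPhi cells, with GFPhi replicates 1 and 2 the highest of the 6 libraries and replicate 3 the lowest (log2 fold change 0.34 ± 0.89, adjusted p = 0.816, and 0.90 without replicate 3, adjusted p = 0.00144). By quantitative PCR, the study reported no altered expression of Cdkn1c or of the Ink4a family in GFPhi cells. Of 12 germline genes known to be silenced by DNA methylation none was abundant enough to test with all libraries. Their summed level was at most 1.27 CPM in any library. Ddx4 was at 0.185, 0.210 and 0.193 CPM in GFPlo and 0.514, 0.580 and 0.0745 CPM in GFPhi cells. Only without replicate 3 did it pass the filter, through GFPhi replicates 1 and 2 where it was high. Its call as higher in that fit therefore decides nothing.

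Uhrf1 and Dnmt1 are known as genes of dividing cells, so genes of replication and mitosis are given beside them. Of 14 replication genes 1 was lower between Lmo2Tg and WT (Mcm2, log2 fold change -0.33 ± 0.10, adjusted p = 0.0204) and 12 were lower between Lmo2Tg;p21-/- and p21-/- (14.4% of all genes were called lower there, and 16.9% against WT), with a list median of -0.44 and Tyms (log2 fold change -0.63 ± 0.14, adjusted p = 0.00615), Gins2 (log2 fold change -0.56 ± 0.16, adjusted p = 0.0242) and Mcm5 (log2 fold change -0.51 ± 0.13, adjusted p = 0.0127) leading. Of 10 mitosis genes 1 (Ccnb1, log2 fold change -0.52 ± 0.17, adjusted p = 0.0348) and 8 were lower in these comparisons, the latter led by Ccnb1 (log2 fold change -0.75 ± 0.19, adjusted p = 0.0115), Bub1 (log2 fold change -0.64 ± 0.19, adjusted p = 0.0294) and Ccnb2 (log2 fold change -0.59 ± 0.18, adjusted p = 0.0299). The Ccnb1 call against WT was lost without Lmo2Tg library a (-0.32, adjusted p = 0.272) or WT replicate 1 or 3. The Ccnb1, Bub1 and Ccnb2 calls against p21-/- were lost without Lmo2Tg;p21-/- replicate 1 (-0.48, -0.36 and -0.36, adjusted p = 0.0836, 0.208 and 0.222) or p21-/- replicate 2. For Lmo2Tg against WT the median of the replication list was -0.21, where that of all genes was -0.01. The summed level of the replication genes was 5155 to 5654 CPM in WT, 5195 and 5665 CPM in p21-/-, 4344 and 4975 CPM in Lmo2Tg and 3615 and 4466 CPM in Lmo2Tg;p21-/- cells, with Mcm6 the most abundant in each. Without Lmo2Tg library a the Mcm2 call was lost (-0.24, adjusted p = 0.18), and without Lmo2Tg;p21-/- replicate 1 those of Tyms (-0.46, adjusted p = 0.061), Gins2 (-0.51, adjusted p = 0.138) and Mcm5 (-0.36, adjusted p = 0.122). Those of Gins2 (-0.42, adjusted p = 0.169) and Mcm5 (-0.41, adjusted p = 0.102) were also lost without p21-/- replicate 2. With the Y-linked covariate the calls of Gins2 (adjusted p = 0.0791) and Ccnb2 (adjusted p = 0.0581) against p21-/- and of Mcm2 (adjusted p = 0.0661) and Ccnb1 (adjusted p = 0.0837) against WT were lost. In GFPhi cells 1 replication gene (Cdt1, log2 fold change -0.65 ± 0.13, adjusted p = 0.0253, and -0.56 without replicate 3, adjusted p = 0.00851) and, by edgeR, DESeq2 and limma-voom, 0 mitosis genes (0 at an unadjusted p under 0.05) were called, and the summed replication level was 4342, 5003 and 5245 CPM in GFPlo and 4261, 4626 and 3377 CPM in GFPhi replicates 1 to 3. Without GFPhi replicate 3, 2 replication genes were called lower, Cdt1 and Pcna (adjusted p = 0.0453), where 21.7% of all genes were. The median of the replication list was -0.25 in GFPhi cells and -0.13 without replicate 3. The Cdt1 call was lost without GFPhi replicate 1 or GFPlo replicate 2 or 3 (adjusted p of 0.0869 to 0.12). The part of these levels in the results for Uhrf1 and Dnmt1 was not tested.

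Markers of cell state and of other cells also moved with the transgene. Of 9 DN3 markers 1 was higher and 6 lower between Lmo2Tg and WT, including Rag2 (-2.33), Ptcra (-1.90) and Notch3 (-1.13), while Dtx1 rose (0.90). None of the 9 was at 0 in any library. The 6 markers of later thymocytes summed to 74.4 to 89.8 CPM in WT and 230.0 and 297 CPM in Lmo2Tg cells (4 higher, 1 lower, Cd69 the most abundant in the latter), and to 129 and 147 CPM in Lmo2Tg;p21-/- cells. In GFPhi cells they were at 285, 303 and 142 CPM, against 195 to 237 CPM in GFPlo cells. The 8 B-lineage markers summed to 41.3 to 45.4 CPM in GFPlo and 48.3, 81.2 and 63.2 CPM in GFPhi cells (4 of 7 tested higher, Blk or Cd79b the most abundant), to 61.6 to 66.1 CPM in WT, 50.8 and 64.4 CPM in p21-/-, 29.4 and 30.8 CPM in Lmo2Tg and 28.2 and 34.8 CPM in Lmo2Tg;p21-/- cells (2 of 4 tested lower in each transgene comparison). The 7 myeloid markers, led by Lyz2 or Spi1, summed to 18.6 to 24.4 CPM in WT, 25.3 and 27.3 CPM in p21-/-, 30.6 and 33.6 CPM in Lmo2Tg and 36.3 and 41.4 CPM in Lmo2Tg;p21-/- cells (3 of 6 tested higher in each transgene comparison, 1 lower against WT), and to 7.53 to 12.4 CPM in the GFP libraries. The 6 erythroid markers reached at most 29.6 CPM, in p21-/- replicate 2, with 1.94 to 5.60 CPM in WT and 8.14 and 12.9 CPM in Lmo2Tg cells. The 6 dendritic ones, mostly Itgax, were at 0.907 to 2.29 CPM in WT and 3.14 to 6.22 CPM in the transgenic genotype libraries. The 7 stromal markers, almost all of it Epcam, summed to 16.9 to 23.9 CPM in GFPlo, 39.4 to 79.9 CPM in GFPhi, 48.7 to 57.6 CPM in WT and 15.03 to 20.0 CPM in the transgenic genotype libraries. Their part in the results for the 10 genes was not tested.

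Genes whose level most resembled each of the 10 over the 9 genotype libraries were found among 11034 genes with a mean of at least 1 CPM, as a description of libraries that share genotypes. The closest were Igsf8 for Uhrf1 (r = 0.994), Brip1, a repair helicase gene, for Dnmt1 (r = 0.992) and Anp32a for Ezh2 (r = 0.988). In the 6 GFP libraries, which were not used to pick them, the same pairs had r = 0.478, 0.853 and 0.943. For Tet2 it was Fndc3a (0.982, then 0.929), for Suz12 Odf2 (0.984, then 0.664), for Phf6 Rprd1a (0.970, then 0.483) and for Eed Iqcg (0.858, then 0.640). The partners of Dnmt3a (Zfp607) and Dnmt3b (Usp15) had r = 0.981 and 0.958 over the genotypes and -0.769 and -0.747 over the GFP libraries, and Kdm6a was closest to Gm29096 (0.939, then 0.247).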

How the data were processed

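RNA was extracted from sorted DN3 cells with RNeasy columns and sequenced after poly-A capture. The deposited values are raw read counts per protein-coding gene, and the submitters' processing notes name STAR 2.4.2a, featureCounts and limma with mm10. The names of the deposited tables mark reverse-strand counting for the GFP table and no strand for the genotype table, and no other source used here gives the setting. In the genotype table, for Eed, Suz12, Ezh2, Dnmt3a and Tet2, which share 0.25% to 6.82% of exonic bases with genes on the opposite strand, reads of both genes then cannot be told apart. Of the columns of the genotype table, 1, named like another Lmo2Tg;p21-/- library, matched no sample label and was not used, and 1 labelled p21-/- sample had no column, which left 15 libraries.

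From these counts, edgeR 4.0.16 (R 4.3.3; TMM scaling, filterByExpr with a minimum count of 10 and a total of 15, quasi-likelihood test, Benjamini-Hochberg adjustment over all genes tested, called at an adjusted p under 0.05) was fitted to the GFP table and, as 1 fit, to the genotype table. The tables were counted and scaled separately and no test crosses them. DESeq2 1.42.0, limma-voom (limma 3.58.1), other scaling or filters, a replicate block and leaving out each library were the alternatives, and the Y-linked covariate was added after seeing the data. Of 200 genes simulated with a log2 change of 1 among 11581, the GFP fit called 113, and for Lmo2Tg against WT 171 were called of 200 among 11840. CPM are counts scaled to a common library total, with TMM factors. Positions and lengths are from GENCODE M21 (98.2% of genes matched by identifier). In each list and comparison, up to 3 called genes with the largest change were named, together with the 10 genes, Lmo2 and Cdkn1a; other genes of a list (the Hoxa genes, Cdkn2a and Cdkn2b in GFP cells, DN3 markers and Ddx3x) were named after their values were seen. The 10 genes and the lists were chosen with earlier results of these data known. The values of 2 genes of the lists are not reported here, though the counts of their lists hold them. Equal replicate numbers were not taken as pairing samples, since no source ties a number to a cohort and not every pair of deviations correlated above 0.1.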

Additional observations from a re-analysis of the deposited data

Results flagged for a closer look

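Cdkn1a differed between transgenic and non-transgenic mice in its response to p21 loss, by the interaction term of the edgeR fit. The log2 value was -1.56 ± 0.27 (SE, adjusted p = 0.0319), with 36.5, 37.5 and 49.0 CPM in WT, 14.3 and 17.7 CPM in p21-/-, 32.8 and 26.3 CPM in Lmo2Tg and 4.35 and 3.50 CPM in Lmo2Tg;p21-/- DN3 cells. As Cdkn1a is the deleted gene, its value compares what is left of its transcript. The call was lost without WT replicate 1, 2 or 3, p21-/- replicate 2, Lmo2Tg library a or Lmo2Tg;p21-/- replicate 1 or 2 (log2 values -1.73 to -1.39 over all alternatives, adjusted p up to 0.130). It was also lost with limma-voom (adjusted p = 0.0634).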

How the results depend on the processing

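The fall of Dnmt3b in GFPhi cells was called in all 13 alternatives (log2 fold change -1.14 to -1.03, adjusted p up to 0.0284). Uhrf1 was called in 11 of 12 alternatives in each transgene comparison (-0.66 to -0.37 against WT, -0.81 to -0.40 against p21-/-), and Dnmt1 in 10 of 12 and 7 of 12, the latter also lost with the Y-linked covariate (adjusted p = 0.0622) and with only the groups compared in the fit (adjusted p = 0.0549). Over the 10 genes, 730 of 760 alternative values kept the call, 21 gained one and 9 lost one, the 2-fold limits left out. The 51 that crossed 0 (-0.24 to 0.16) were not called, nor were their values with the settings as reported.

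The number of genes called depended more on the processing. For GFPhi against GFPlo it was 1721, and 2879 with DESeq2, 731 and 261 with a 2-fold limit at an adjusted p of 0.05 and 0.01, 3903 with the Y-linked covariate, and 273 to 4848 when 1 library was left out. For p21-/- against WT it was 13, and 20 with DESeq2, 21 without a filter, 21 with the covariate and 8 to 18 with 1 library left out. For Lmo2Tg against WT 4329 became 1420 at 2-fold and 2815 to 3836 with 1 library left out. For Lmo2Tg;p21-/- against Lmo2Tg 822 became 222 at 2-fold, 404 with only those groups and, with 1 library left out, 60 to 514 (293 without Lmo2Tg library b, 272 without Lmo2Tg;p21-/- replicate 2), and against p21-/- 3639 became 1230 at 2-fold and 1914 to 3179. For the interaction 163 became 464 with DESeq2, 520 without a filter, 95 at 2-fold, 537 with the covariate and, with 1 library left out, 0 to 449, with 63 without Lmo2Tg library a and 0 without WT replicate 1 or 3 or Lmo2Tg;p21-/- replicate 1. With the longest transcript as length, the ratio of Uhrf1 to Tet2 per kilobase in WT moved from 83.9 to 54.2. The cause of these differences was not tested.

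With the replicate number as a block, 496 genes were called in GFPhi cells (of the named genes, Phf19, Cdkn1c, Cdt1, Rnf2, Scmh1, Kmt2c, Mbd1 and Zbtb4 were lost, adjusted p of 0.053 to 0.116), 17 between p21-/- and WT and 4964 between Lmo2Tg;p21-/- and p21-/-, where Ezh2, Dnmt3a and Tet2 joined Dnmt1 and Uhrf1. Deviations of equally numbered GFP libraries were not correlated (r = 0.070, -0.079 and 0.099), so the number was not taken as pairing samples, although the cells came from 3 cohorts. No paired analysis was possible for comparisons with Lmo2Tg because its columns carry no number that matches its labels alone. Few genes of the low lists passed the filter on low counts. Of 22 Polycomb targets, 4 were tested in the GFP table and 10 in the genotype table, and of 12 germline genes 0 in both. The GFP libraries held more counts, and the reason for this difference was not tested.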
